A study of Mus musculus with 12 samples.

Results

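The kainate receptor subunit genes Grik1, Grik2, Grik3, Grik4 and Grik5 were followed across the hippocampus. They were chosen by gene symbol, and each of the 5 had 1 row in the table of 32546 genes. Kainate receptors are glutamate-gated cation channels assembled from several subunits, and GluK1, GluK2 and GluK3, the products of Grik1, Grik2 and Grik3, form channels on their own. GluK4 and GluK5, the products of Grik4 and Grik5, bind kainate with high affinity and need one of the other 3 subunits to reach the surface as a functional receptor. In the hippocampus these receptors are best known from the mossy fibre synapse, where axons of granule cells of the dentate gyrus (DG) contact pyramidal cells of CA3, and CA1 receives no mossy fibres.

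The values came from photo-isolation chemistry (PIC), in which cDNA primed in a tissue section by a photo-caged oligo-dT primer enters the library only where light removed the cage. CA1, CA3 and DG of male ICR mice aged 8 weeks were irradiated in 4 histological conditions, with 4 biological replicates for each region and condition. Fresh-frozen sections were permeabilized either with 0.1 N HCl for 5 min, in a protocol that also uses the detergent Triton X-100, or with Tris-EDTA (TE) at 70 °C for 1 h. Frozen and paraffin sections of tissue labelled as fixed with 4% PFA were permeabilized with TE only. The study's protocol also has a short step in 4% PFA on the slide for sections of every kind, fresh-frozen ones included. The sample titles name the third region CA3, which was followed here, and the series text names CA2 in its place. No group carried a transgene or a drug treatment, and no animal was named for a replicate, so p-values measure the spread between these replicates, part of which may be technical. For each region and condition 1 library was made, which pooled its 4 replicates by barcode. Within a condition, region and library therefore cannot be told apart, and the 4 conditions served as repeats over 12 libraries.

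Each gene had a count of unique molecular identifiers (UMIs) per replicate, scaled here to the replicate's total and given as CPM. The counts are of transcript 3′ ends and were not divided by length, so levels are compared between samples and not between genes. Replicate totals ranged from 127253 to 933756 UMIs in HCl sections, from 294445 to 1111804 in fresh-frozen TE sections, from 52800 to 307145 in fixed frozen sections and from 35932 to 223055 in paraffin sections. Over the 48 replicates, Grik1 had 302 UMIs, Grik2 1491, Grik3 196, Grik4 805 and Grik5 1122, and Grik1 was left with 8 UMIs in the 12 fixed frozen and 13 in the 12 paraffin replicates. Intervals and limits given for single counts cover counting error only.

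Markers of the labelled regions were highest in those regions. A list of 5 CA3 pyramidal genes, of which 5 were called lower in CA1 than in CA3 and 4 higher in CA3 than in DG over the libraries (4.67% and 8.18% of all genes were called in these comparisons), summed to 401 to 644 CPM in CA3 replicates, against 0 to 228 in CA1 and 117 to 384 in DG. Iyd of this list was at 0 in all CA1 libraries and in the paraffin CA3 library, and Nnat and Cdh24 were at 0 in the fixed frozen CA1 library. A list of 5 CA1 genes summed to 180.0 to 1250.3 CPM in CA1, 25.1 to 241 in CA3 and 77.3 to 301 in DG. Within a condition, CA1 and DG overlapped on this list in paraffin sections only. The 5 granule cell genes summed to 507 to 1557 CPM in DG against 55.3 to 449.8 elsewhere. The 4 genes of a CA2 list did not single out the CA3 libraries, with 232 to 1009 CPM there and 383 to 1524 in DG. Glial lists also moved with region. In HCl sections 4 oligodendrocyte genes summed to 7740.1 to 16157 CPM in CA1, 5399.7 to 7777 in CA3 and 2694 to 4536 in DG. The 4 astrocyte genes summed to 1211 to 1579.5, 1606 to 2173 and 2263 to 3139.9 there. In each of the other conditions the astrocyte mean was higher in CA1 than in CA3, as with 2018 against 1919 CPM in fresh-frozen TE sections. The oligodendrocyte sums of the 3 regions overlapped in paraffin sections, at 10269 to 17523, 7343 to 15264 and 4668 to 14047 CPM in CA1, CA3 and DG. Over the libraries all 4 oligodendrocyte genes were called higher in CA1 and in CA3 than in DG, and 2 of 4 astrocyte genes lower, where 10.2% (CA1 against DG) and 8.18% (CA3 against DG) of all genes were called. The astrocyte list summed to 284 to 706 CPM in fixed frozen and to 1211 to 4303 in fresh-frozen replicates. The 8 interneuron genes summed to 756 to 1509 CPM in fresh-frozen and 521 to 1513 in formalin-fixed replicates. Lists of 3 genes each for oligodendrocyte precursors, microglia and endothelium reached at most 93.3, 187 and 238 CPM in any replicate. The part of these cell types in the Grik differences was not tested. In an irradiated area fewer cells of a type and less RNA per cell cannot be told apart.

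The 5 genes lie on 5 chromosomes of GRCm38 (GENCODE M21), Grik1 at chr16:87895900-88290265, Grik2 at chr10:49094833-49788766, Grik4 at chr9:42518135-42944493 and Grik5 at chr7:25009849-25072346 on the minus strand and Grik3 at chr4:125490700-125714173 on the plus strand. Exon bases of Grik4 are shared with Gm24420, a small RNA gene without a row in the table, and no exon base of the other 4 members is shared with another gene. The start regions are printed for the 3 genes on which the results turn, Grik2 and Grik4 for the regions and Grik5 for the conditions. They run from 250 bases before to 50 bases after the RefSeq start (GRCm38.p6, minus strand, each printed 5′ to 3′), and 4 of the 5 members matched this table. The end of the window was found in a GENCODE transcript of the gene for Grik2, but not for Grik4 and Grik5. Capitals mark GC boxes, the letters GGGCGG on either strand, which 35.7% of the 32851 start regions in the table hold.

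Grik2 (chr10:49788705-49789004): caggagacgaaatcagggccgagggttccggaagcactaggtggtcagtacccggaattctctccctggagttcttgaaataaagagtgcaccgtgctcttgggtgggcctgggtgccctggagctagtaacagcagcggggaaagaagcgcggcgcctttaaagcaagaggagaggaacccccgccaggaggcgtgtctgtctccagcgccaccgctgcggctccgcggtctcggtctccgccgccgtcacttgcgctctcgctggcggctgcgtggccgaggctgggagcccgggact
Grik4 (chr9:42944322-42944621): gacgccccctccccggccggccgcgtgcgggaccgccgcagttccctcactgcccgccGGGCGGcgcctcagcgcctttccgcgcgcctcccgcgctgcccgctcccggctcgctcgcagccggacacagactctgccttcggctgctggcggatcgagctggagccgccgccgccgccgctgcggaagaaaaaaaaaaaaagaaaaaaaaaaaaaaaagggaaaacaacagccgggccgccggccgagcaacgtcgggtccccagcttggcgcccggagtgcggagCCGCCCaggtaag
Grik5 (chr7:25072320-25072619): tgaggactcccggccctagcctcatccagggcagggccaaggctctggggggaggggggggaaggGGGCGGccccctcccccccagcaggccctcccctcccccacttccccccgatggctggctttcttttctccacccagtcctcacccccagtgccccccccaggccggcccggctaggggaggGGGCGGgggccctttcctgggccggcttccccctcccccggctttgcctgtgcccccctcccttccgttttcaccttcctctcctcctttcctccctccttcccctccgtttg

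The Grik2 window has 0 GC boxes and 26 CG dinucleotides, the Grik4 window 2 GC boxes and 42 CG, and the Grik5 window 2 GC boxes and 10 CG, where the median of all windows is 7 CG. The window of Grik3, at chr4:125490446-125490745, holds 7 GC boxes and 50 CG. Neither a TATA box (TATAAA, 13.6% of all windows), nor CCAAT (37.4%), nor the cyclic AMP element TGACGTCA (1.79%) was in any of the 4 windows on either strand.

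**Figure D1:**
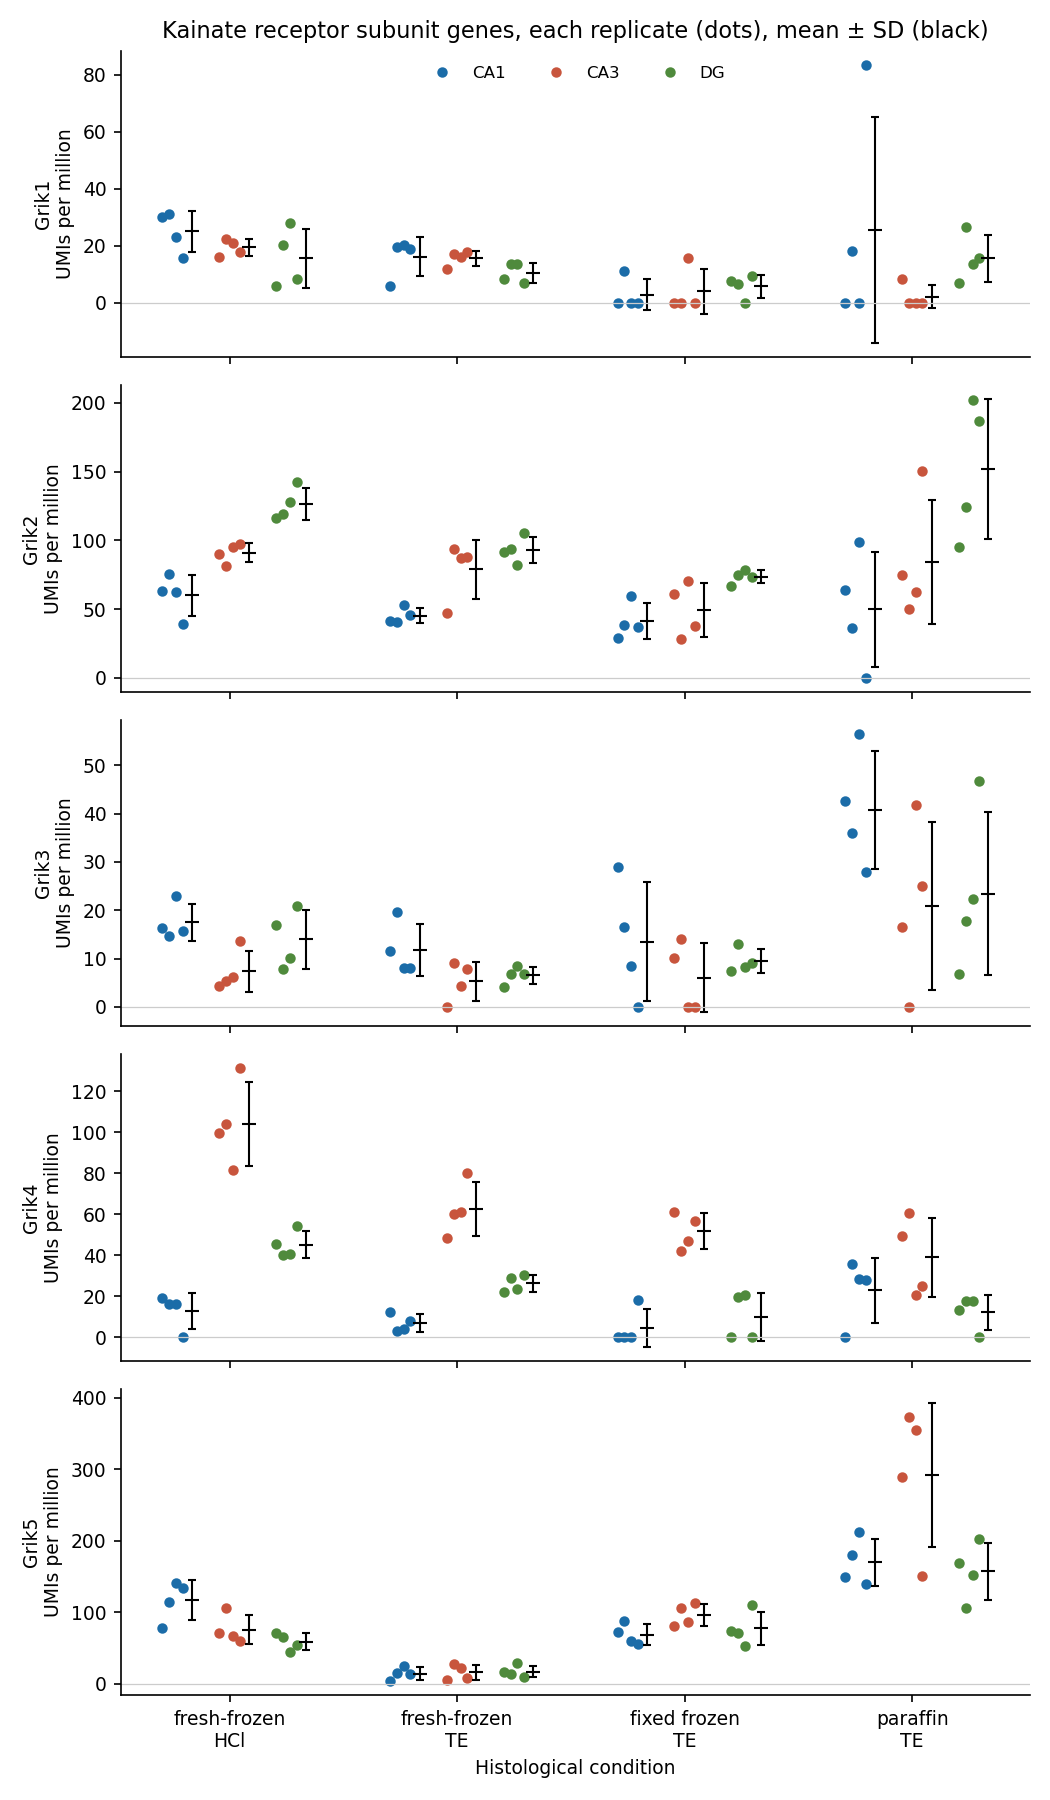
CPM of the 5 kainate receptor subunit genes in each of the 48 replicates, by histological condition (x axis) and region (colour), with the mean and SD of the 4 replicates in black. The Grik4 mean is highest in CA3 in every condition, Grik2 has its highest mean in DG, and Grik5 is between 3.45 and 28.5 CPM in fresh-frozen TE replicates and at 44.4 CPM or more in the replicates of the other 3 conditions.

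Regional differences lay mainly with Grik4 and Grik2. Grik4 was highest in CA3 and lowest in CA1 of fresh-frozen and fixed frozen sections, Grik2 was lowest in CA1 and highest in DG, Grik3 had its highest mean in CA1, and Grik1 and Grik5 had no regional order that held in all conditions. Within a condition, each pair of regions was fitted on 4 against 4 replicates by the quasi-likelihood test of edgeR. Called means an adjusted p under 0.05 over all genes of the fit. Between CA1 and DG, 3 of 5 members were called in HCl sections (Grik2, Grik4 and Grik5), where 17.0% of all genes tested were called. In fresh-frozen TE sections they were 2 of 5 (Grik2 and Grik4; 10.1% of all genes), in fixed frozen sections 0 of 4 tested (8.14%) and in paraffin sections 1 of 5 (Grik2; 3.29%). In the fixed frozen sections 1 member, Grik2, had an unadjusted p under 0.05, and DESeq2 called 0 of the 4. Between CA3 and DG, 1 member was called in each condition, Grik4 in HCl (8.99% of all genes), fresh-frozen TE (7.91%) and fixed frozen sections (9.27%) and Grik5 in paraffin sections (3.21%). Between CA1 and CA3, Grik4 was called in HCl (9.13% of all genes), fresh-frozen TE (4.4%, with Grik2) and fixed frozen sections (7.2%), and 0 of 4 tested members were called in paraffin sections (2.36%), where Grik5 had an unadjusted p under 0.05 and DESeq2 also called 0.

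Over the 12 libraries, with the UMIs of the 4 replicates summed and condition as a covariate, Grik2 and Grik4 were called between CA1 and DG (10.2% of all genes), Grik4 between CA3 and DG (8.18%), and Grik3 and Grik4 between CA1 and CA3 (4.67%). The members did not move one way. The median log2 fold change of the 5 over the libraries was 0.34 for CA1 over DG, 0.08 for CA3 over DG and -0.16 for CA1 over CA3, beside 0.00424, -0.00871 and 0.0189 for all genes. In a two-sided exact permutation test of the CPM of 4 against 4 replicates, 16 of 60 comparisons of a member between 2 regions had replicates that did not overlap, where 12.4% of comparisons did so over all genes tested, and each of the 16 had p = 0.0286, the smallest p this design allows. Adjusted over the 60 comparisons that p became 0.107, so 0 of 60 passed.

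**Figure D2:**
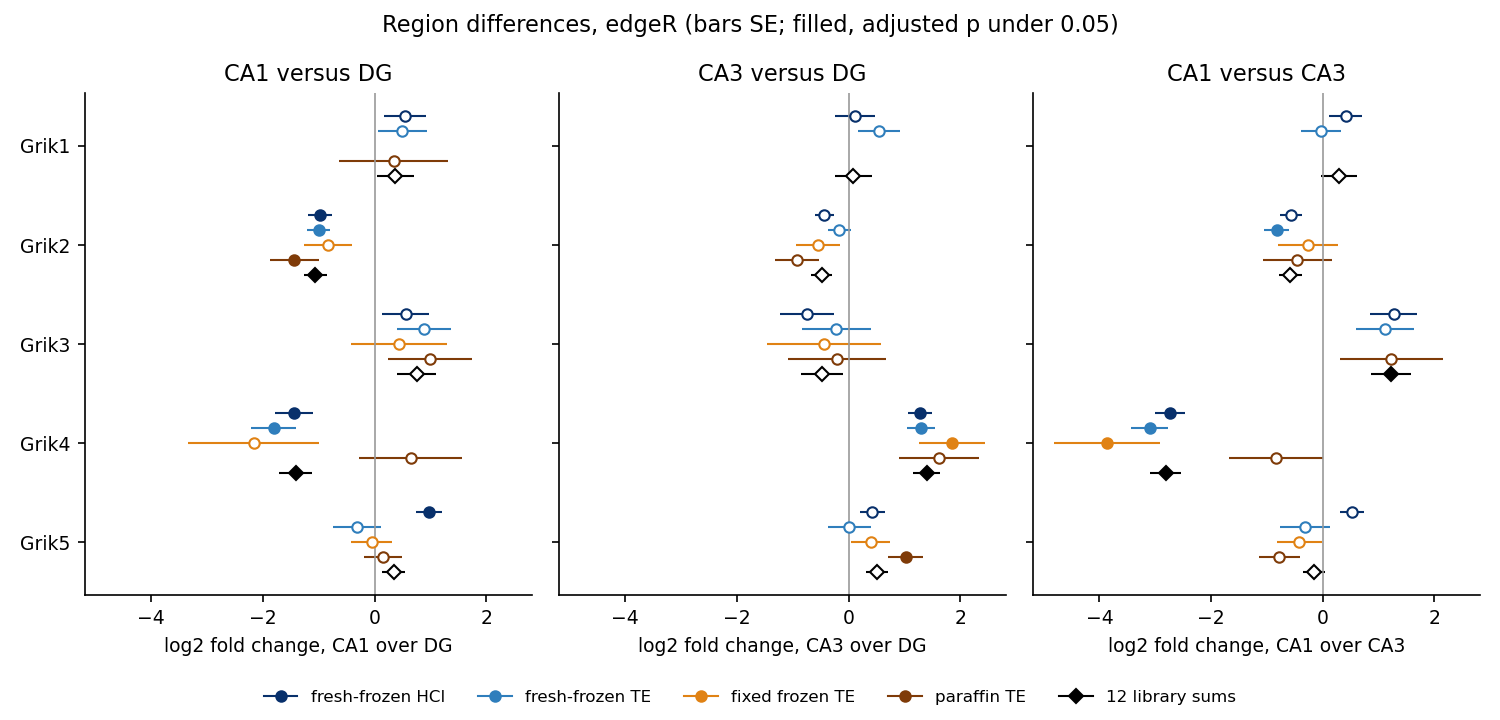
Log2 fold change between 2 regions (x axis) for each member (y axis), from edgeR, in each condition and over the 12 library sums; bars are SE and filled symbols have an adjusted p under 0.05. Grik4 lies left of 0 in CA1 over CA3 in every fit shown and right of 0 in CA3 over DG, and Grik2 lies left of 0 in CA1 over DG.

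Grik2 encodes GluK2, the subunit found in most hippocampal kainate receptors. Its mean CPM was lowest in CA1 and highest in DG in each of the 4 conditions. In HCl sections Grik2 was at 62.9, 75.4, 62.1 and 39.3 CPM in CA1 (replicates 1 to 4), 90.1, 81.4, 95.1 and 97.1 in CA3 and 116, 119, 128 and 142 in DG. No region overlapped another in these sections, and the means ± SD were 59.9 ± 15.05, 90.9 ± 6.996 and 127 ± 11.6 CPM. Compared with DG, CA1 was at a log2 fold change of -0.98 ± 0.21 (adjusted p = 0.000796), a 1.97-fold lower level in CA1. CA3 over DG was at -0.44 ± 0.17 (adjusted p = 0.115), which did not pass. With the replicate number as a block it was -0.45 and passed (adjusted p = 0.0215). In this comparison same-numbered replicates deviated together.

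In fresh-frozen TE sections Grik2 was at 41.3, 40.7, 52.7 and 45.9 CPM in CA1, 47.2, 93.5, 86.8 and 87.9 in CA3 and 91.5, 93.7, 82.2 and 105 in DG. CA1 was below DG without overlap, and replicate 1 of CA3 lay among the CA1 values while the other 3 lay with DG. CA1 over DG was -1.005 ± 0.21 (adjusted p = 0.000780) and CA1 over CA3 -0.83 ± 0.22 (adjusted p = 0.0224), and CA3 over DG was -0.17 ± 0.20 (95% interval -0.57 to 0.23). The call between CA1 and CA3, where same-numbered replicates deviated together, was kept with the replicate number as a block. It was lost with DESeq2 (log2 fold change -0.82, adjusted p = 0.0589). It was also lost when 1 of 5 replicates was left out, at -0.78 and -0.78 without CA1 replicates 1 and 2 and -0.75, -0.78 and -0.76 without CA3 replicates 2, 3 and 4 (adjusted p between 0.0632 and 0.111).

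In fixed frozen sections Grik2 was at 28.97, 38.7, 59.7 and 36.9 CPM in CA1, 61.1, 28.2, 70.5 and 37.9 in CA3 and 67.1, 74.9, 78.4 and 73.4 in DG. CA1 stayed below DG in all replicates, from 18 and 59 UMIs, and the log2 fold change of -0.83 ± 0.42 (adjusted p = 0.265) did not pass. In paraffin sections it was at 64.03, 36, 98.9 and 0 CPM in CA1, 74.5, 50.4, 62.7 and 150.4 in CA3 and 94.9, 124, 202 and 187 in DG. The 0 in CA1 replicate 4 allows up to 83.5 CPM and replicate 3 of CA1 exceeded replicate 1 of DG. CA1 over DG was -1.44 ± 0.44 (adjusted p = 0.0402) in paraffin sections, from 12 and 85 UMIs. That call was lost with DESeq2 (adjusted p = 0.485), with DESeq2's size factors in edgeR (0.0851) and with CA3 in the fit (0.0769). Those size factors moved the median of all genes from -0.18 to -0.06 and the share of all calls that were higher in CA1 from 26.4% to 40.3%. Leaving out 1 replicate also ended it, at -1.49, -1.26 and -1.12 without CA1 replicates 1, 2 and 4 and -1.48, -1.15 and -1.34 without DG replicates 2, 3 and 4 (adjusted p between 0.0630 and 0.274).

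Over the 12 libraries Grik2 had a log2 fold change of -1.07 ± 0.20 (adjusted p = 6.89e-06) for CA1 over DG, a 2.09-fold lower level. CA3 lay between, at -0.48 ± 0.19 (adjusted p = 0.106) over DG and with CA1 over CA3 at -0.58 ± 0.21 (adjusted p = 0.0844), and neither passed with the library as the unit. The 48 replicates as units gave adjusted p = 0.00770 and 0.00224 for these comparisons.

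Grik3 encodes GluK3, a subunit of low glutamate sensitivity, and was counted at low numbers, 43, 24 and 24 UMIs in CA1, CA3 and DG of HCl sections. In these sections it was at 16.4, 14.8, 23.01 and 15.7 CPM in CA1, 4.29, 5.35, 6.17 and 13.7 in CA3 and 17.03, 7.75, 10.2 and 20.9 in DG. All CA1 replicates were above all CA3 replicates, and DG overlapped both. CA1 over CA3 was 1.27 ± 0.43 (adjusted p = 0.0571) and did not pass, while filterByExpr gave adjusted p = 0.0309 and the fit without CA3 replicate 4 a log2 fold change of 1.70 (adjusted p = 0.0175). In fresh-frozen TE sections the means were 11.8 ± 5.42, 5.27 ± 4.05 and 6.52 ± 1.796 CPM, and CA1 over CA3 was 1.11 ± 0.52 (adjusted p = 0.316).

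In fixed frozen sections Grik3 ranged from 0 to 28.97 CPM in CA1, 0 to 14.1 in CA3 and 7.45 to 13.02 in DG, on 6, 3 and 8 UMIs, and CA1 against CA3 was below the count minimum. In paraffin sections it ranged from 27.8 to 56.5, 0 to 41.8 and 6.78 to 46.7 CPM on 9, 5 and 11 UMIs. Its mean was highest in CA1 and lowest in CA3 in all 4 conditions, the regions where Grik4 was lowest (in 3 of 4 conditions) and highest. In the library sums CA1 over CA3 was 1.22 ± 0.35 (adjusted p = 0.0165), a 2.33-fold higher level in CA1, and CA1 over DG 0.75 ± 0.34 (adjusted p = 0.168). The first call was lost without the libraries of HCl sections (1.12, adjusted p = 0.333) and without those of fresh-frozen TE sections (1.27, adjusted p = 0.217).

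Grik1 encodes GluK1, which in the hippocampus is known mainly from interneurons. Its replicates overlapped between regions in each condition. In HCl sections it was at 30.1, 31.1, 23.01 and 15.7 CPM in CA1, 16.1, 22.5, 20.99 and 17.8 in CA3 and 5.68, 20.2, 27.9 and 8.37 in DG, and CA1 over DG was 0.54 ± 0.37 (95% interval -0.19 to 1.28). In fresh-frozen TE sections the means were 16.1 ± 6.94, 15.6 ± 2.64 and 10.5 ± 3.54 CPM. Summed by library, the log2 fold changes were 0.37 ± 0.34 for CA1 over DG, 0.08 ± 0.33 for CA3 over DG and 0.29 ± 0.32 for CA1 over CA3, with 95% intervals of -0.29 to 1.03, -0.56 to 0.73 and -0.34 to 0.92. A regional difference of Grik1 was not detectable at this depth, where no region of formalin-fixed sections had more than 8 UMIs.

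Grik4 encodes GluK4, a high-affinity subunit whose transcript is known from CA3. It was the member with the largest differences between regions, in each of the 3 contrasts over the libraries. In HCl sections Grik4 was at 19.2, 16.4, 16.1 and 0 CPM in CA1, 99.7, 104, 81.5 and 131 in CA3 and 45.4, 40.3, 40.6 and 54.4 in DG. No region overlapped another, and the 0 in CA1 replicate 4, on 127253 UMIs, allows up to 23.6 CPM, which is still below all DG values. CA3 over DG was 1.27 ± 0.21 (adjusted p = 0.000241), CA1 over DG -1.45 ± 0.34 (adjusted p = 0.00173) and CA1 over CA3 -2.74 ± 0.27 (adjusted p = 1.36e-08). These correspond to 2.42-fold more in CA3 than in DG and 6.67-fold less in CA1 than in CA3.

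In fresh-frozen TE sections Grik4 was at 12.6, 3.01, 4.05 and 8.09 CPM in CA1, 48.6, 60.3, 61.1 and 80.1 in CA3 and 22.4, 28.96, 23.5 and 30.6 in DG, again without overlap. CA3 over DG was 1.30 ± 0.25 (adjusted p = 0.000842), CA1 over DG -1.81 ± 0.41 (adjusted p = 0.00197) and CA1 over CA3 -3.10 ± 0.33 (adjusted p = 2.84e-07). Each of these 6 fresh-frozen calls stood whichever replicate was left out. With counts thinned to one depth, those that could still be tested did not pass. Their values are given after the regional results. In fixed frozen sections it was at 0, 0, 0 and 18.4 CPM in CA1, 61.1, 42.3, 46.97 and 56.8 in CA3 and 0, 19.5, 20.6 and 0 in DG. CA3 was above both other regions without overlap, on 21 UMIs, and CA1 held 1 UMI in 4 replicates. The zeros of CA1 replicates 1 to 3 allow up to 43.5, 16.6 and 25.6 CPM, the first of which reaches the lowest CA3 value. CA1 over CA3 was -3.87 ± 0.95 (adjusted p = 0.00177) in the fit, and the ratio of the library levels was 21.05, CA3 over CA1, with an exact counting interval of 3.39 to 871.

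CA3 over DG in fixed frozen sections was 1.86 ± 0.59 (adjusted p = 0.0250) for Grik4, and the call was lost with DESeq2 (2.06, adjusted p = 0.104) and without the filter on low counts (1.81, adjusted p = 0.0546). It was also lost at 1.72 and 1.85 without CA3 replicates 1 and 3 and 1.57 and 1.62 without DG replicates 1 and 4 (adjusted p between 0.0605 and 0.0842). CA1 over DG was -2.17 ± 1.17 (adjusted p = 0.310), on 1 and 11 UMIs. In paraffin sections Grik4 was at 0, 36, 28.3 and 27.8 CPM in CA1, 49.6, 60.4, 20.9 and 25.1 in CA3 and 13.6, 17.8, 17.9 and 0 in DG, on 5, 14 and 8 UMIs. The counted values of CA3 lay above those of DG, but the 0 of DG replicate 4 allows up to 46.7 CPM, above CA3 replicates 3 and 4 with 1 UMI each, and CA1 overlapped both. In these sections CA3 over DG was 1.61 ± 0.71 (adjusted p = 0.240) and CA1 over CA3 -0.84 ± 0.84 (adjusted p = 0.783), neither past the threshold. With the libraries as units, CA3 over DG was 1.39 ± 0.24 (adjusted p = 3.48e-07), CA1 over DG -1.42 ± 0.30 (adjusted p = 8.27e-05) and CA1 over CA3 -2.81 ± 0.28 (adjusted p = 1.11e-20), a 7.02-fold lower level in CA1 than in CA3. Without the libraries of fresh-frozen TE sections CA1 over DG was -1.17 (adjusted p = 0.0691).

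Grik5 encodes GluK5, the other high-affinity subunit, which is known to be broadly expressed in the brain. Its regional differences were smaller and not of one direction. In HCl sections Grik5 was at 77.98, 115, 141 and 134 CPM in CA1, 70.8, 106, 66.7 and 60.2 in CA3 and 70.96, 65.1, 44.4 and 54.4 in DG. CA1 was above DG without overlap and CA3 overlapped both, and CA1 over DG was 0.98 ± 0.24 (adjusted p = 0.00252), a 1.97-fold higher level in CA1. CA1 over CA3 was 0.53 ± 0.21 (adjusted p = 0.129), and became 0.73 without CA1 replicate 1 and 0.75 without CA3 replicate 2 (adjusted p = 0.0339 and 0.0252). In fresh-frozen TE sections it was at 3.45, 15.1, 25.7 and 13.5 CPM in CA1, 5.895, 27.9, 22.5 and 7.82 in CA3 and 16.3, 13.6, 28.5 and 10.2 in DG, with all regions overlapping, and CA1 over DG was -0.32 ± 0.43 (adjusted p = 0.749).

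In fixed frozen sections Grik5 was at 72.4, 88.5, 59.7 and 55.3 CPM in CA1, 81.5, 106, 86.1 and 114 in CA3 and 74.5, 71.6, 53.6 and 110.1 in DG, again overlapping. In paraffin sections it was at 149, 180.0, 212 and 139 CPM in CA1, 289.6, 373, 356 and 150.4 in CA3 and 169, 107, 152 and 202 in DG. Replicates 1 to 3 of CA3 were above all others and replicate 4, the one with the fewest UMIs of that library, lay among DG and CA1. CA3 over DG was 1.02 ± 0.31 (adjusted p = 0.0413) in paraffin sections, a 2.02-fold higher level in CA3. This call was lost with DESeq2 (adjusted p = 0.211), without the filter (0.125), with CA1 in the fit (0.0525) and at 0.97, 0.83 and 0.95 without CA3 replicates 1, 2 and 3 and 1.05, 0.82, 0.95 and 1.10 without DG replicates 1, 2, 3 and 4 (adjusted p between 0.0508 and 0.231). The library sums gave 0.34 ± 0.20 (adjusted p = 0.346) for CA1 over DG, 0.50 ± 0.20 (adjusted p = 0.107) for CA3 over DG and -0.16 ± 0.20 (adjusted p = 0.872) for CA1 over CA3, and the second had adjusted p = 0.0493 with DESeq2's size factors.

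With every replicate thinned to 35932 UMIs, in 1 draw, none of the regional calls within a condition that could be tested passed with edgeR. Few UMIs of a member per replicate are left at this depth and SE are not given here. A lost call or a changed value cannot be told apart from the loss of counts. Grik4 in CA3 over DG was then 2.62 (adjusted p = 0.0874) in HCl and 0.76 (adjusted p = 0.826) in fresh-frozen TE sections, and in CA1 over CA3 of HCl sections -1.41 (adjusted p = 0.478). Its other calls could not be tested, with too few UMIs left. Grik2 in CA1 over DG was -0.0554 (adjusted p = 0.964) in HCl, -0.82 (adjusted p = 0.701) in fresh-frozen TE and -0.83 (adjusted p = 0.625) in paraffin sections, and in CA1 over CA3 of fresh-frozen TE sections -0.00735 (adjusted p = 0.995). Grik5 was 0.87 (adjusted p = 0.583) in CA1 over DG of HCl sections and 0.46 (adjusted p = 0.757) in CA3 over DG of paraffin sections. In the library sums Grik4 in CA1 over CA3 still passed, at -1.88 (adjusted p = 0.0278). Grik4 in CA3 over DG, at 1.63 (adjusted p = 0.0549), and in CA1 over DG, at -0.25 (adjusted p = 0.956), did not pass. Nor did Grik2 in CA1 over DG, at -0.60 (adjusted p = 0.539), or Grik3 in CA1 over CA3, at 1.40 (adjusted p = 0.736). Of the calls between conditions, described next, those of Grik5 passed at this depth. Grik4 for HCl over TE, at 0.58 (adjusted p = 0.571), and Grik2 for paraffin over fixed frozen sections, at 0.96 (adjusted p = 0.0951), did not. The call of Grik1 for fixed over fresh-frozen sections was not kept either.

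Whether a regional difference itself changed with the histological condition was tested by an interaction term against fresh-frozen TE sections, in 9 fits. Of the 45 tests of a member with edgeR, 0 passed, 5 had an unadjusted p under 0.05, and DESeq2 also called 0. The shares of all genes called in these fits were 1.41% (HCl), 0.35% (fixed frozen) and 0.947% (paraffin) for CA1 over DG, 0.102%, 0.341% and 0.405% for CA3 over DG, and 0.516%, 0.335% and 0.433% for CA1 over CA3. Grik5 had the smallest unadjusted p, for CA1 over DG in HCl against TE sections, with a difference of log2 fold changes of 1.29 ± 0.49 (adjusted p = 0.214). For Grik4 the difference between paraffin and fresh-frozen TE sections was 2.33 ± 1.04 (adjusted p = 0.364) in CA1 over DG and 2.08 ± 0.97 (adjusted p = 0.549) in CA1 over CA3. The other 2 tests with an unadjusted p under 0.05 were Grik1 and Grik2 in CA3 over DG of paraffin sections, at -2.64 ± 1.33 (adjusted p = 0.564) and -0.89 ± 0.44 (adjusted p = 0.557). DESeq2's size factors moved the median of all genes by more than 0.1 in 4 of the 9 fits, from -0.35 to -0.03 in the one for CA1 over DG in paraffin sections, and also called 0 members.

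The level of Grik5 differed between histological conditions more than that of the other members: it was lowest in fresh-frozen TE sections and highest in paraffin sections in each region. Each step compared 2 conditions, which for HCl against TE differ in acid, detergent and heating together, and was fitted on 24 replicates with region as a covariate. From TE to HCl in fresh-frozen sections 2 of 5 members were called higher, Grik5 and Grik4, where 30.6% of all genes were called. From fresh-frozen to fixed frozen sections Grik5 was called higher and Grik1 lower (48.7% of all genes), and from fixed frozen to paraffin sections Grik5 and Grik2 were called higher (28.0%). The median log2 fold change of the 5 members was 0.45, -0.41 and 1.08 in these steps, beside 0.10, -0.39 and 0.0471 for all genes. The first 2 steps share the fresh-frozen TE replicates and the last 2 the fixed frozen ones, and each condition has 3 libraries, so condition and library cannot be told apart within a region. With DESeq2's size factors the median of all genes moved from 0.0471 to 0.22 in the paraffin step, and the share of all calls higher in paraffin from 48.7% to 65.7%.

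**Figure D3:**
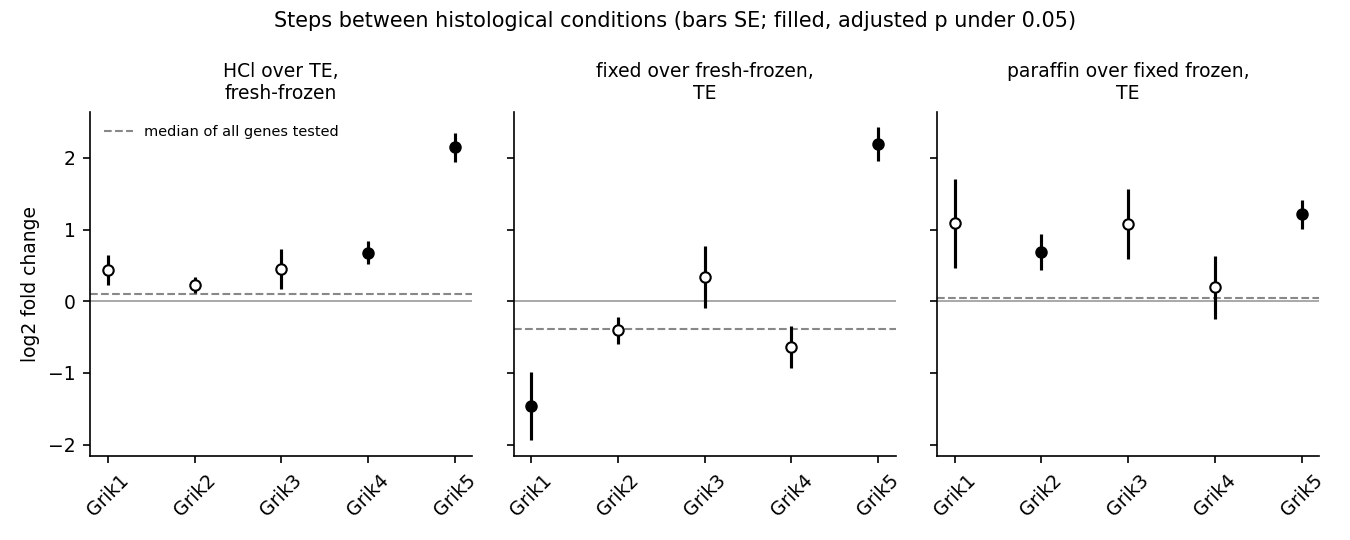
Log2 fold change of each member (x axis) in 3 steps between histological conditions, from edgeR on 24 replicates with region as a covariate; bars are SE, filled symbols have an adjusted p under 0.05, and the dashed line is the median of all genes tested. Grik5 lies above the other members in the first 2 steps, at 2.15 and 2.19.

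Grik5 had the largest of these changes, and the values by replicate are those given above. Its log2 fold change was 2.15 ± 0.20 (adjusted p = 3.08e-12) for HCl over TE, 2.19 ± 0.24 (adjusted p = 1.73e-13) for fixed over fresh-frozen sections and 1.21 ± 0.20 (adjusted p = 1.46e-07) for paraffin over fixed frozen sections. The mean CPM in HCl sections was 8.11, 4.74 and 3.42 times that in fresh-frozen TE sections in CA1, CA3 and DG, and the replicates did not overlap in any of the 3 regions. In fixed frozen sections the ratios to fresh-frozen TE were 4.78, 6.04 and 4.52, without overlap in the 3 regions, and in paraffin over fixed frozen sections 2.47, 3.02 and 2.04, with overlap in DG only. All 3 calls stood in each of 7 alternatives and whichever of the 24 replicates was left out. Fresh-frozen TE sections thus held the lowest Grik5 level of the 4 conditions in each region, at 14.4 ± 9.09, 16.03 ± 10.8 and 17.2 ± 7.98 CPM in CA1, CA3 and DG.

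A feature of the Grik5 transcript stood out among coding genes. The last 500 bases of its longest coding transcript in GENCODE M21 are 61.6% G or C, against 36.6% in Grik1, 37.2% in Grik2, 47.0% in Grik3 and 44.2% in Grik4, and lie at percentile 99.5 of 14005 coding genes tested for HCl against TE. The last AATAAA, the polyadenylation signal, ends in all 5 transcripts between 17 and 28 bases before the transcript's end. In the first 2 steps genes with a GC-rich transcript end had a higher median log2 fold change than GC-poor ones. For HCl over TE, the 10% of coding genes with the highest GC had a median log2 fold change of 0.52, the lowest 10% -0.17, and 1.48% of the former reached the value of Grik5. For fixed over fresh-frozen sections these were -0.0192, -0.53 and 1.45%, and for paraffin over fixed frozen sections -0.00673, 0.10 and 10.8%. The part of GC content in the Grik5 differences was not tested.

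For HCl over TE, Grik4 was at 0.68 ± 0.16 (adjusted p = 0.000757), a 1.598-fold higher level with HCl. The ratios of means were 1.86, 1.66 and 1.72 in CA1, CA3 and DG, without overlap in CA3 and DG. For fixed over fresh-frozen sections it was at -0.64 ± 0.30 (adjusted p = 0.0676), which did not pass but passed in 9 of 24 fits that left out 1 replicate with log2 fold changes of -0.74 to -0.69. Those fits were without fresh-frozen TE CA1 replicates 2 and 3, fresh-frozen TE CA3 replicates 1 and 2, fresh-frozen TE DG replicates 1 and 3, fixed frozen TE CA1 replicate 4, fixed frozen TE CA3 replicate 4 and fixed frozen TE DG replicate 3. For paraffin over fixed frozen sections Grik4 was 0.20 ± 0.44 (95% interval -0.67 to 1.06). The level of Grik4 in DG was 26.3 ± 4.03 CPM in fresh-frozen TE sections and 10.04 ± 11.6 in fixed frozen sections, where 2 replicates at 0 allow up to 22.4 and 27.5 CPM, within the range of the fresh-frozen values. In CA3 it was 62.5 ± 13.03 and 51.8 ± 8.65 CPM.

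Grik1 was at -1.46 ± 0.47 (adjusted p = 0.00779) for fixed over fresh-frozen sections, from 113 UMIs in fresh-frozen TE and 8 in fixed frozen sections. The call stood whichever replicate was left out. It was not kept with thinned counts, and Grik1 was not tested in this step with filterByExpr. Its transcript is 3655 bases long, percentile 56.1 of coding genes, and in this step the longest 10% of coding genes had a median log2 fold change of -0.75 and the shortest 10% 0.39. Grik2 was at -0.41 ± 0.19 (adjusted p = 0.0620) in this step and did not pass, close to the median of all genes. It passed in 18 of 24 fits that left out 1 replicate, at -0.50 to -0.43, all but those without fresh-frozen TE CA3 replicates 2 and 3, fresh-frozen TE DG replicate 4, fixed frozen TE CA3 replicates 1 and 2 and fixed frozen TE DG replicate 2. It also passed with DESeq2 (-0.45, adjusted p = 0.0483). From fixed frozen to paraffin sections Grik2 was 0.68 ± 0.25 (adjusted p = 0.0294), a 1.61-fold higher level, with ratios of means of 1.21, 1.71 and 2.07 and separate replicates only in DG. This call was lost without the filter on low counts (0.69, adjusted p = 0.0519) and at 0.62 without paraffin TE CA1 replicate 3 and 0.59 without paraffin TE DG replicate 3 (adjusted p = 0.0592 and 0.0944). Grik3 was at 1.08 ± 0.49 (adjusted p = 0.0854) in that step and passed without paraffin TE CA3 replicate 2 (1.22) and without paraffin TE DG replicate 1 (1.28), and with DESeq2's size factors (1.27, adjusted p = 0.0367).

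The mix of the 5 transcripts in the counts differed between conditions. Grik5 made 30.8% (28.9 to 32.8%) of the kainate receptor UMIs in HCl sections (95% Wilson interval), 11.7% (9.95 to 13.7%) in fresh-frozen TE sections, 45.1% (39.4 to 50.9%) in fixed frozen and 53.9% (48.97 to 58.7%) in paraffin sections. The share of Grik2 was 34.02% (32.02 to 36.1%), 49.3% (46.4 to 52.2%), 34.5% (29.2 to 40.2%) and 29.9% (25.7 to 34.6%) in the same order. The share of Grik4 was 22.8% (21.04 to 24.6%), 23.6% (21.2 to 26.1%), 11.6% (8.39 to 15.9%) and 6.73% (4.67 to 9.62%). These are shares of counted 3′ ends over the summed replicates of the 3 regions, and a share also falls where another member rises. The regions gave unlike parts of the sums, CA3 1013 of 2093 UMIs in HCl and 87 of 284 in fixed frozen sections. In the same order of conditions, the share of Grik4 was 34.7%, 33.6%, 24.1% and 10.1% in CA3 alone. It was 6.76%, 7.69%, 1.72% and 7.46% in CA1, and 16.8%, 16.9%, 7.91% and 4.08% in DG. In DG of paraffin sections alone, Grik2 made 43.4% (85 UMIs) and Grik5 42.9% (84 UMIs).

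Kainate receptors work with other proteins, and 14 of their partners were examined as a list: the auxiliary subunits Neto1 and Neto2, the synaptic organizers C1ql2, C1ql3 and Nrxn3, and intracellular binding proteins Cask, Dlg1, Dlg3, Dlg4, Grip1, Pick1 and Snap25, with Cul3 and Klhl17, which act in ubiquitination of GluK2. Of the 14, 13 were in the table, and Klhl17 was not analysed here. Over the 12 libraries 5 of 13 were called between CA1 and DG (2 higher in CA1, 3 lower), 6 between CA3 and DG (4 higher in CA3, 2 lower) and 3 between CA1 and CA3 (3 lower in CA1), where 10.2%, 8.18% and 4.67% of all genes were called. Their median log2 fold changes were -0.05, 0.07 and -0.15, beside 0.00424, -0.00871 and 0.0189 for all genes. In the HCl, fixation and paraffin steps 10, 8 and 9 of 13 were called, where 30.6%, 48.7% and 28.0% of all genes were. Of these, 3, 4 and 3 were higher in HCl, fixed frozen and paraffin sections, respectively. In the 12 comparisons of regions within a condition, called partners numbered between 1 and 7 of those tested. Between 2.36% and 17.0% of all genes were called in these fits, so the counts cannot be set against one common share. In the interaction tests Neto1 was the 1 partner called, in fixed frozen against fresh-frozen TE sections, at -3.56 ± 0.94 (adjusted p = 0.0484) for CA1 over DG and -4.36 ± 0.88 (adjusted p = 0.00162) for CA1 over CA3. The fixed frozen CA1 library held 1 UMI of Neto1.

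**Figure D4:**
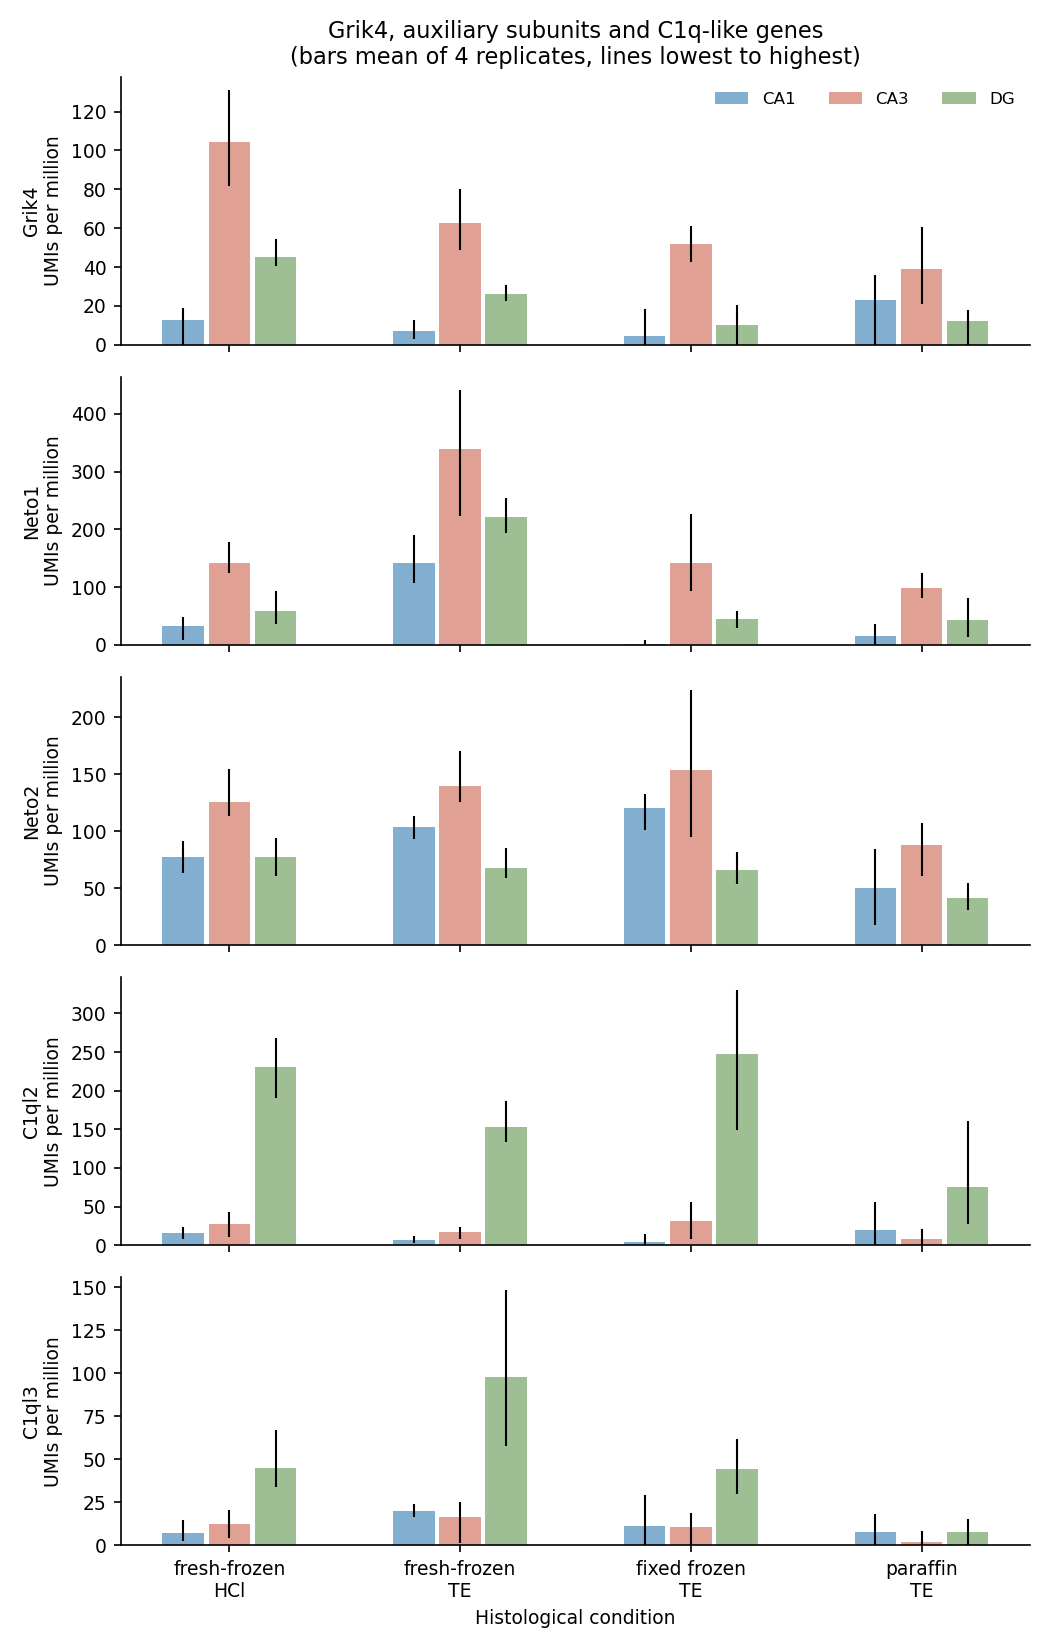
CPM (y axis) of Grik4, the auxiliary subunit genes Neto1 and Neto2 and the C1q-like genes C1ql2 and C1ql3 by condition (x axis) and region (colour); bars are means of 4 replicates and lines run from the lowest to the highest replicate. Neto1 and Neto2 have their highest mean in CA3 in each condition, as Grik4 does, and C1ql2 has it in DG.

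Neto1, whose protein slows the gating of kainate receptors at mossy fibre synapses, had the same order of regions as Grik4 in fresh-frozen and fixed frozen sections, CA1 lowest and CA3 highest. Its means ± SD in HCl sections were 32.6 ± 17.8, 141 ± 24.8 and 59.3 ± 27.03 CPM in CA1, CA3 and DG, and in fresh-frozen TE sections 142 ± 38.3, 339 ± 90.3 and 222 ± 24.9. Over the libraries CA1 over CA3 was -1.90 ± 0.21 (adjusted p = 1.11e-17) and CA3 over DG 0.97 ± 0.19 (adjusted p = 1.94e-05). In the first 2 condition steps, where Grik5 was higher, Neto1 was lower, at -1.73 ± 0.14 (adjusted p = 1.59e-14) for HCl over TE and -2.15 ± 0.19 (adjusted p = 6.03e-17) for fixed over fresh-frozen sections. For paraffin over fixed frozen sections Neto1 was at -0.23 ± 0.30 (adjusted p = 0.614), which did not pass. Neto2, the related auxiliary subunit, was 0.99 ± 0.19 (adjusted p = 1.00e-05) in CA3 over DG and -0.53 ± 0.19 (adjusted p = 0.0946) in CA1 over CA3.

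C1ql2 and C1ql3, secreted proteins of mossy fibres that gather kainate receptors at the synapse, were highest in DG in fresh-frozen and fixed frozen sections. C1ql2 was at 15.4 ± 6.45, 27.5 ± 15.2 and 231 ± 32.7 CPM in CA1, CA3 and DG of HCl sections. Over the libraries it was at -4.22 ± 0.25 (adjusted p = 4.06e-58) for CA1 over DG and -3.02 ± 0.22 (adjusted p = 1.44e-39) for CA3 over DG. C1ql3 was at -2.25 ± 0.29 (adjusted p = 6.74e-13) and -2.11 ± 0.28 (adjusted p = 6.35e-12) in these comparisons. In paraffin sections C1ql3 had 6 UMIs in 12 replicates, and regional differences were not detectable at this depth. Snap25, a presynaptic fusion protein that binds GluK5, was 0.65 ± 0.15 (adjusted p = 0.000790) in CA3 over DG and -0.995 ± 0.16 (adjusted p = 1.96e-08) in CA1 over CA3. Nrxn3, the neurexin through which C1q-like proteins act, was 0.65 ± 0.16 (adjusted p = 0.00153) in CA1 over DG and 0.69 ± 0.16 (adjusted p = 0.000620) in CA3 over DG.

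The genes with regional patterns most like each member were sought among 9741 genes with a mean of at least 10 CPM, by Pearson correlation of log2(CPM + 1) over the 12 libraries after the mean of each condition was subtracted. This is a description without a test, and the points share the libraries and their depths. For Grik4 these were Ccbe1 (r = 0.966), Mndal (r = 0.963) and Vamp1 (r = 0.962). For Grik2 they were Arhgap5 (r = 0.960) and Tspan18 (r = 0.954), and for Grik3 Gas7 (r = 0.966), Itpka (r = 0.965) and Ipcef1 (r = 0.963). For Grik1 they were Strbp (r = 0.987), Nucb2 (r = 0.983) and Acp1 (r = 0.983), and for Grik5 Vta1 (r = 0.936), Polr2a (r = 0.934) and Myl12b (r = 0.923). Among the members themselves the highest and lowest such correlations were 0.559, between Grik1 and Grik3, and -0.771, between Grik3 and Grik4. Grik1 and Grik3 had few UMIs in the 6 formalin-fixed libraries, which enter these values with the same weight as the others.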

How the data were processed

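The 3 regions in 4 histological conditions gave 12 libraries of 4 replicates, 48 columns in all, and groups were taken from the sample titles. The deposited values are UMI counts per gene, which the authors made, per the study's methods and processing notes, with HISAT2 2.1.0, featureCounts 1.6.4 and UMI-tools 1.0.0. UMIs of 6 bases allow 4096 kinds per gene and replicate, far above the counts of these genes. The counting command in the study's protocol sets no strand, so reads from a gene and from an antisense partner cannot be told apart, and the annotation release is not given in the sources used here. Totals ranged from 35932 to 1111804 UMIs, so 1 UMI was worth least in fresh-frozen replicates and most in paraffin ones.

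Counts were tested as deposited with edgeR 4.0.16 in R 4.3.3 (TMM, quasi-likelihood test, genes with a sum of 10 UMIs or more in the fit, Benjamini-Hochberg adjustment over all genes tested). Each region pair was fitted alone within a condition, on the 12 library sums with condition as a covariate, and with an interaction term against fresh-frozen TE sections. Condition steps had region as a covariate. Errors of log2 fold changes are SE, and those of CPM are SD over 4 replicates. Single levels were compared by two-sided exact permutation tests, and shares have Wilson intervals. A count of 0 was read as allowing up to 3 UMIs. The tests were checked on simulated data.

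Alternatives were DESeq2 1.42.0, its size factors in edgeR, other filters, thinned counts, the replicate number as a block, the remaining region in the fit, and leaving out each replicate or condition. The block was judged by whether same-numbered replicates deviated together. Every correlation was over 0.1 in the 3 comparisons of fresh-frozen TE sections (lowest 0.180) and in CA3 against DG of HCl sections (lowest 0.228). It was not in the other 8, nor in any condition step as a whole. The rule is not the only one possible. In CA1 against DG of paraffin sections 8 of 8 replicates correlated best with their own number. The members and lists were chosen with earlier results of these data known. The rule for named genes took all 5 members, a partner list with values for its auxiliary subunits, its synaptic organizers and the partners called most often, and the 3 most alike genes of each member, of which 1 is not reported here. Gene positions are from GENCODE M21, and a table of barcodes was not used.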

Additional observations from a re-analysis of the deposited data

Results flagged for a closer look

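In 7 of 60 groups of 4 replicates, 1 replicate lay beyond Dixon's 95% limit for the gap as a share of the range. About 3 of 60 are expected for continuous, normally distributed values. Groups with mostly 0 counts are not of that kind, so the 2 numbers are not comparable. Replicate 1 of CA1 in fresh-frozen TE sections was low for Grik1 (gap 0.906 of the range), and replicate 1 of CA3 in the same condition was low for Grik2 (0.856). Replicate 4 of CA1 in HCl sections, at 0 UMIs, was low for Grik4 (0.841). In the other 4 groups the gap was the whole range (1), since 3 replicates were at 0. These were Grik1 in CA1 replicate 2 and CA3 replicate 3 of fixed frozen sections, Grik1 in CA3 replicate 1 of paraffin sections, and Grik4 in CA1 replicate 4 of fixed frozen sections.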

How the results depend on the processing

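The counts of called members were 6 for CA1 against DG, 4 for CA3 against DG and 4 for CA1 against CA3 over the 4 conditions, 5 over the library sums, and 2 in each condition step. No result that had passed changed direction under any alternative. With 1 draw of 35932 UMIs from each replicate, the called members fell to 0, 0 and 0 in the 3 region comparisons. They fell to 1 in the library sums and to 1, 1 and 1 in the HCl, fixation and paraffin steps. The numbers were the same with the replicate block added, where it was run. Thinning takes UMIs from every gene. The share of all genes still called is not given here, so the drop is not particular to these members. The member still called in the steps was Grik5, and in the library sums Grik4 between CA1 and CA3. CA3 against DG kept 2 calls with DESeq2 and 2 without the filter on low counts. DESeq2 called 3 of 5 members in the fixation step and 3 of 5 in the paraffin step. The library sums kept 3 without the fresh-frozen TE libraries. filterByExpr left 1 call in the fixation step, where Grik1 was no longer tested, and 1 in the paraffin step, where Grik2 was no longer tested, and the paraffin step also had 1 without the filter.

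Leaving out each replicate gave 5 to 6 calls for CA1 against DG, 2 to 4 for CA3 against DG (2 without CA3 replicates 1 or 3 or DG replicates 1 or 4), 3 to 4 for CA1 against CA3, 2 in the HCl step, 2 to 4 in the fixation step and 1 to 3 in the paraffin step. The share of all genes called under each alternative is not given here. Whether a changed count is particular to the members therefore cannot be told. The replicate block gave 6, 5 and 6 calls for the 3 region comparisons and 2 in each step. A call it added was Grik2 between CA3 and DG of HCl sections. By edgeR it also added Grik2 (-0.56, adjusted p = 0.0464) and Grik3 (1.42, adjusted p = 0.0196) between CA1 and CA3 of HCl sections. That comparison did not meet the correlation rule for the block. In these latter sections 3 of 8 replicates correlated best with their own number. The causes were not tested. The interaction tests had 0 calls under each alternative run. So did the exact tests of levels, whose smallest p leaves little room to pass after adjustment. Of the alternative values of single genes, 2145 kept their side of the threshold, among them values that had not passed and changed sign, 63 lost a call and 46 gained one.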
